A study of Homo sapiens with 3 samples.

Results

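Of 37 genes of glycolysis and the hypoxia response, 14 carried an anti-FOXM1 peak called in both chromatin immunoprecipitation libraries of Huh7 cells. The 37 genes are a fixed list, 22 of glycolysis and its control and 15 of the hypoxia pathway, among 19974 protein-coding genes on chromosomes 1 to 22 and X. A peak was assigned to a gene when its summit lay inside the gene or within 5 kb of it, by the RefSeq annotation of GRCh38. A peak counted as shared when a peak of each library was assigned to the gene and the peaks overlapped by at least 1 bp. Membership rests on gene function, and no peak value enters the rule, but the list was chosen with earlier results of these data known.

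Glycolysis splits glucose into pyruvate in the cytosol and yields ATP without oxygen. Hypoxia-inducible factor, or HIF, is a dimer of an oxygen-labile alpha subunit and the stable subunit ARNT. With oxygen, prolyl hydroxylases mark the alpha subunit and the VHL ubiquitin ligase removes it, whereas without oxygen the dimer binds a short core at its target genes and raises most enzymes of glycolysis. FOXM1 is a forkhead transcription factor best known for genes of cell division, and tumours of the liver often make more of it and take up more glucose than normal tissue.

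Huh7 is an established human hepatocellular carcinoma line, and the cells were untreated. The series held 1 input library and 2 immunoprecipitated libraries, numbered replicates 2 and 3, for which the antibody was G-5 against FOXM1. The labels do not say whether these came from separate cultures. Replicate 2 had 8271 peaks and replicate 3 had 11502, and the longer list gives a gene more chances of a call in replicate 3. Each peak has a fold enrichment, a linear ratio of fragments at the summit over the local background, and a −log10 q, where q is the false discovery rate. Both are the authors' own values. The lowest −log10 q listed was 1.32 in replicate 2 and 1.31 in replicate 3, so a gene without a peak is one where this threshold was not passed. Fragments over a summit were rebuilt from the deposited values, with medians of 26 and 24.5 over all peaks. The series had no control antibody and no cells lacking FOXM1, so whether a peak depends on FOXM1 was not tested. The files hold no RNA values, so the expression of the genes and the liver identity of the cells could not be checked.

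At the 5 kb window, members had peaks somewhat more often than protein-coding genes as a whole. The small number of members does not resolve these margins. In replicate 2, 18 of 37 members had a peak (48.6%, exact 95% interval 31.9 to 65.6), against 33.3% of all protein-coding genes. In replicate 3 it was 20 of 37 (54.1%, interval 36.9 to 70.5), against 41.3%. A shared peak was found at 14 of 37 (37.8%, interval 22.5 to 55.2), against 25.5%. Each interval held the share of all genes. The span of a gene sets how many summits can fall in it, and here the medians were alike, 25.0 kb for members and 24.2 kb for all protein-coding genes. Among genes with spans of 3 to 200 kb, a range set after seeing the data, the shared share was 26.5%. Of the remaining members, 6 had a peak in replicate 3 alone, 4 in replicate 2 alone, and 13 had none. The same split was not counted over all protein-coding genes, so these counts are not read as a trait of members.

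**Figure D1:**
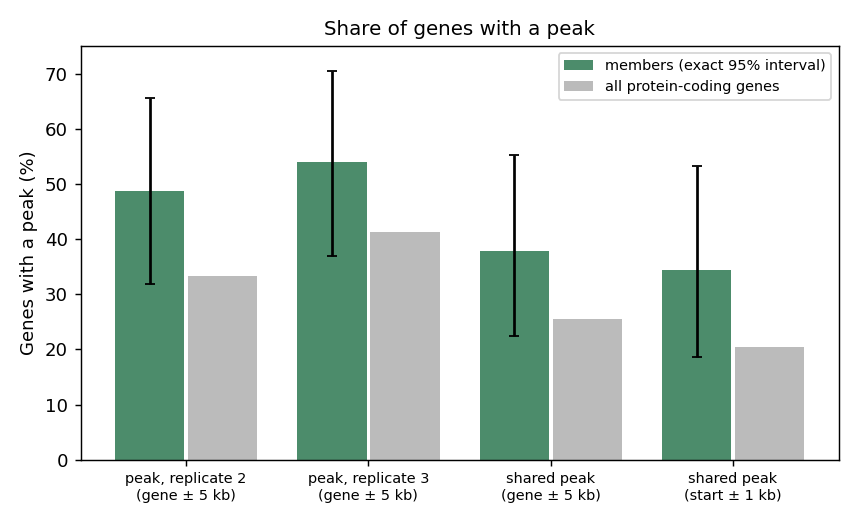
Share of genes with a peak (%), for members (green, with exact 95% intervals that cover counting error only) and all protein-coding genes (grey), by library and for shared peaks. The member bar is the higher one in each pair, at 48.6% against 33.3% in replicate 2, and every interval reaches below the grey bar.

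Shared peaks were found at 9 of 22 glycolysis genes and 5 of 15 hypoxia genes, beside the 25.5% of all protein-coding genes given above. The groups are small, and differences between them were not tested. By role, shared peaks stood at 1 of 2 glucose transporter genes, 1 of 3 genes of hexose phosphates, 2 of 5 of the phosphofructokinase step, 4 of 9 of the triose steps and 1 of 3 that set the fate of pyruvate. On the hypoxia side they stood at 0 of 3 HIF subunit genes, 3 of 5 genes of HIF turnover and 2 of 7 hypoxia targets. The highest fold of a member had a median of 4.16 in replicate 2 (18 members, 3.14 to 5.76) and 4.13 in replicate 3 (20 members, 2.63 to 6.07). Over all protein-coding genes with a peak these medians were 3.93 and 4.02, so the members' peaks were of ordinary height.

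**Figure D2:**
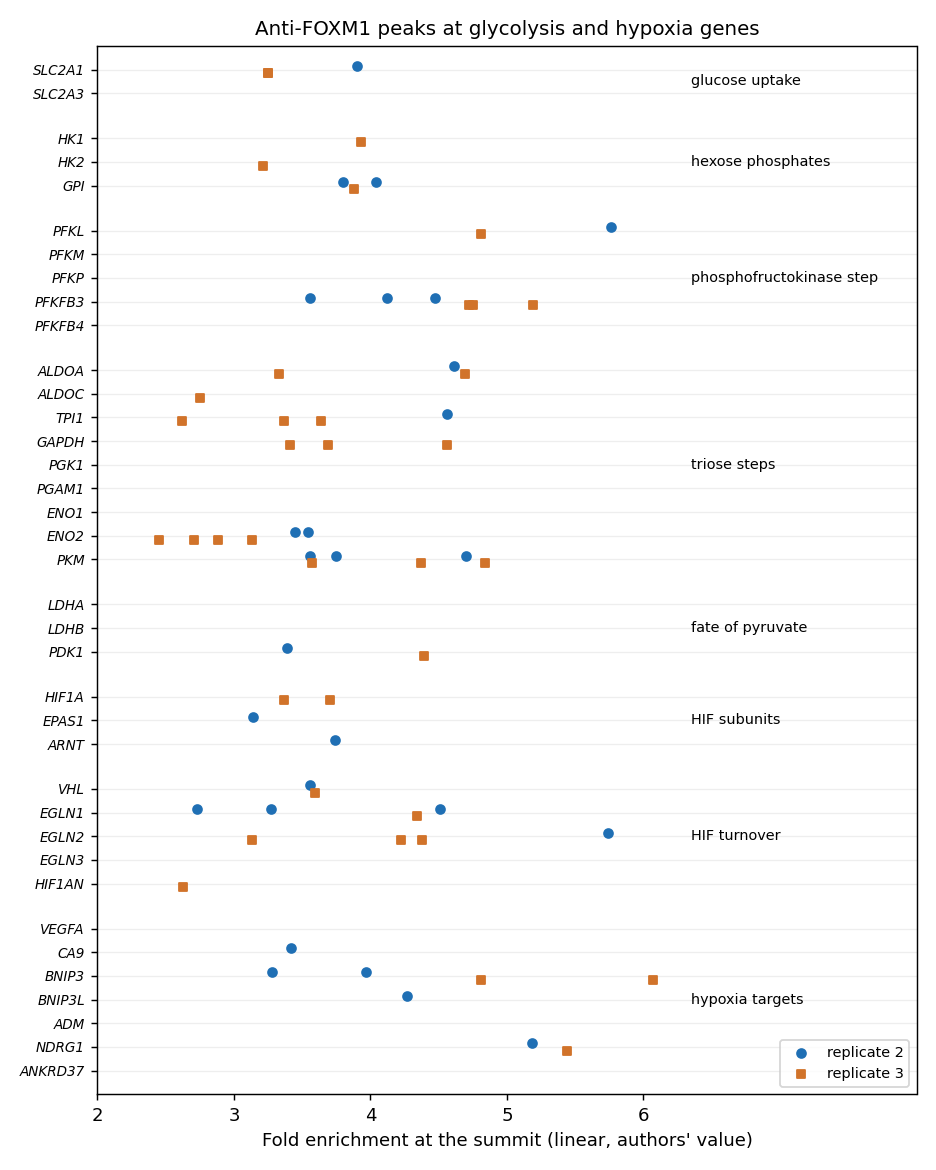
Fold enrichment at the summit (linear scale, authors' value) of every peak assigned to a member, with replicate 2 as blue circles and replicate 3 as orange squares; an empty line is a gene with no listed peak. PFKL, EGLN2 and NDRG1 reach folds above 5 in replicate 2, BNIP3 reaches 6.07 in replicate 3, and of the 3 phosphofructokinase subunit genes PFKL alone has points.

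Glucose enters cells through the transporters GLUT1 and GLUT3, encoded by SLC2A1 and SLC2A3. SLC2A1 had a shared peak inside the gene, 361 bp past its start in replicate 2 (chr1:42958257-42958766, fold 3.90, −log10 q 5.20) and 436 bp past it in replicate 3 (chr1:42958408-42958531, fold 3.25, −log10 q 2.71). A second peak of replicate 3, of the same fold, lay 262 bp upstream of the start and 81 bp into the divergent noncoding gene SLC2A1-DT. SLC2A3 had no peak, and its nearest summits were 96458 bp and 96443 bp away. The next enzymes, the hexokinases, trap glucose as glucose 6-phosphate, and GPI turns that into fructose 6-phosphate. HK1 and HK2 had peaks in replicate 3 only: HK1 at 318 bp upstream of 1 of its 7 listed starts (fold 3.93, −log10 q 4.43), and HK2 at 69 bp upstream of its first listed start (fold 3.21, −log10 q 2.48). The HK2 summit was also 71 bp upstream of the start of the noncoding gene HK2-DT. GPI had a shared peak just past its listed start, at 47 bp in replicate 2 (chr19:34364967-34365619, fold 3.80) and 148 bp in replicate 3 (chr19:34365040-34365569, fold 3.88). That start lies inside the RefSeq span of GPI, and the summits were 5321 bp and 5422 bp from the nearer end of the gene. A further GPI peak of replicate 2 (fold 4.04) lay 2064 bp beyond the gene and 78 bp into the neighbouring gene PDCD2L.

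Phosphofructokinase commits sugar to glycolysis, and its liver, muscle and platelet subunits come from PFKL, PFKM and PFKP. PFKL had the highest fold of any member in replicate 2, 5.76 (chr21:44299904-44300664, −log10 q 7.67), higher than 98.7% of that library's peaks. In replicate 3 its fold was 4.81 (chr21:44299662-44300823, −log10 q 5.09), higher than 89.4% of peaks, on a peak 1162 bp wide. The summits lay 34 bp and 652 bp past the start, 618 bp apart within the overlapping peaks. PFKM and PFKP had no peak in either library, and their nearest summits in replicate 3 were 37502 bp and 36923 bp away. The promoter of PFKL is shown because the replicate 2 peak covers its start. It is the RefSeq window from 250 bases before to 50 after the start (chr21:44299803-44300102, plus strand, GRCh38.p14), printed 5′ to 3′, and capitals mark the hypoxia core ACGTG or GCGTG on either strand.
PFKL: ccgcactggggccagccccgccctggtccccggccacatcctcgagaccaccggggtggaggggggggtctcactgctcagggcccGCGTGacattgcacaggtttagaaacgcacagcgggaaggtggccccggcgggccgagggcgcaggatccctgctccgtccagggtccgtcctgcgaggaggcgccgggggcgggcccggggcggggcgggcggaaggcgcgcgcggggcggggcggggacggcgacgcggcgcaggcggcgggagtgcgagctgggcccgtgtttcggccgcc
Its 1 core starts 164 bases before the transcription start, and the window holds 40 CpG dinucleotides at a GC content of 78.3%.

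PFKFB3 and PFKFB4 make fructose 2,6-bisphosphate, the strongest activator of phosphofructokinase. PFKFB3 was called at both of its listed starts. At the first, the peaks were chr10:6144899-6145055 in replicate 2 (fold 4.12, −log10 q 3.55) and chr10:6144853-6145537 in replicate 3 (fold 4.75, −log10 q 5.00), with summits 14 bp apart. At the other start, replicate 2 had 2 narrow peaks, with fold 4.47 and 3.56, and replicate 3 had 1 peak of 786 bp over both, with fold 4.72. The noncoding gene PFKFB3-AS1 also starts within 1 kb of these summits. Replicate 3 also had a peak 1333 bp upstream of that start, with fold 5.19. PFKFB4 had no peak, and the nearest summits were 13422 bp and 13652 bp away.

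In the triose steps, aldolase splits the 6-carbon sugar, and a chain of enzymes ends in pyruvate kinase. ALDOA had 3 listed starts, and the shared peak stood at the third alone (chr16:30065564-30065776, fold 4.61, −log10 q 5.72 in replicate 2; chr16:30065498-30065659, fold 3.33, −log10 q 2.08 in replicate 3), with summits 130 bp and 107 bp upstream. A peak of replicate 3 with fold 4.69 lay 570 bp past the second start. The readthrough gene LOC112694756 spans the same stretch, and reads there cannot be given to either gene. The paralogue ALDOC had a peak in replicate 3 only, 41 bp upstream of its start, with fold 2.75 and −log10 q 1.68. TPI1, which interconverts the triose phosphates, had a shared peak with summits 90 bp and 82 bp past its start (chr12:6867487-6867991, fold 4.56, −log10 q 6.87 in replicate 2; chr12:6867585-6867753, fold 3.37, −log10 q 3.36 in replicate 3). Replicate 3 also had a peak with its summit 14 bp upstream of the other TPI1 start, with fold 3.64, and one 1555 bp beyond the gene, with fold 2.62, inside SPSB2.

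GAPDH, which oxidises glyceraldehyde 3-phosphate, had 3 peaks in replicate 3 and none in replicate 2. Their folds were 4.56, 3.69 and 3.41, and their summits lay 1097 bp and 640 bp upstream and 144 bp downstream of the listed start. That start lies inside the RefSeq span of GAPDH. By the span, the first summit was 350 bp outside the gene and the second was inside it, 107 bp from its end. ENO2, the enolase of neurons, had 2 shared pairs, but these lay 4068 to 4699 bp beyond the gene, inside ATN1, and just within the 5 kb window. Their folds were 3.54 and 3.45 in replicate 2 and 2.45 and 2.71 in replicate 3. At its own start ENO2 had peaks of replicate 3 alone, 483 bp and 217 bp upstream, with folds of 3.13 and 2.88. ENO2 was the only shared member where another protein-coding gene was nearer to every shared pair, a check added after seeing the data. GAPDH, TPI1 and ENO2 lie within 389.2 kb of each other on chromosome 12. PGK1, PGAM1 and ENO1, the enzymes between GAPDH and pyruvate kinase that most cells use, had no peak. The nearest summits were 43794 bp and 43665 bp from ENO1, 106338 bp and 65636 bp from PGAM1, and 5827189 bp and 6085568 bp from PGK1.

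PKM, which encodes the pyruvate kinases of most proliferating cells, had 3 shared pairs. At its start the folds were 3.75 in replicate 2 (chr15:72231081-72231615, −log10 q 4.38) and 4.84 in replicate 3 (chr15:72230971-72231596, −log10 q 8.57), with summits 183 bp and 296 bp upstream. The listed start lies inside the RefSeq span of PKM, and these summits were also inside it, 218 bp and 105 bp from its end of higher coordinate. At 959 bp and 915 bp past the start the order was turned: 4.70 in replicate 2 (−log10 q 8.48, on 40 fragments) and 3.57 in replicate 3 (−log10 q 4.42, on 29 fragments). The other pair lay past the far end of PKM, at the start of GRAMD2A, with folds of 3.56 and 4.37.

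Lactate dehydrogenase turns pyruvate into lactate, and PDK1 keeps pyruvate out of the mitochondrion by inhibiting pyruvate dehydrogenase. Both LDHA and LDHB had no peak, and the nearest summits of replicates 2 and 3 were 290297 bp and 288512 bp from LDHA and 676303 bp and 388483 bp from LDHB. PDK1 had a shared peak at the second of its 2 listed starts. Its fold was 3.39 in replicate 2 (chr2:172555800-172556198, −log10 q 4.49) and 4.39 in replicate 3 (chr2:172555852-172556371, −log10 q 9.61). The replicate 3 peak rested on 47 fragments, the most of any member peak, over 9.83 expected, and its −log10 q was higher than that of 97.7% of peaks although its fold was higher than that of 78.3%.

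The 2 starts of PDK1 and the upstream start of LDHA are shown together because they differ in peaks and in letters. The first PDK1 window (chr2:172555123-172555422, plus strand) had 6 CpG dinucleotides and was touched by no peak. The second (chr2:172555840-172556139, plus strand) had 38 and was touched in both libraries, with the replicate 2 summit 5 bp past the start. The LDHA window (chr11:18394313-18394612, plus strand) had 29 and was touched in neither. Capitals mark the hypoxia cores as above.
PDK1 first start: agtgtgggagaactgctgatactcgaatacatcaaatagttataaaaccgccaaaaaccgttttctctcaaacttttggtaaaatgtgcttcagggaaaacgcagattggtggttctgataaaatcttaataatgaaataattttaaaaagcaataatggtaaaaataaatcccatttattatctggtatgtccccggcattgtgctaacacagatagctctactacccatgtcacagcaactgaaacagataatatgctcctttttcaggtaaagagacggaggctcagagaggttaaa
PDK1 second start: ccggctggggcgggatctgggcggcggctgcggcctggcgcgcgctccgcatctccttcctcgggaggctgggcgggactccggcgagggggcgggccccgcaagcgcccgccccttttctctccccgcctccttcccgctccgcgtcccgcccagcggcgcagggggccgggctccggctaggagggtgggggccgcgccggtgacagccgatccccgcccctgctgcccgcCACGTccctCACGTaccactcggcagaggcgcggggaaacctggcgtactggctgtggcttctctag
LDHA: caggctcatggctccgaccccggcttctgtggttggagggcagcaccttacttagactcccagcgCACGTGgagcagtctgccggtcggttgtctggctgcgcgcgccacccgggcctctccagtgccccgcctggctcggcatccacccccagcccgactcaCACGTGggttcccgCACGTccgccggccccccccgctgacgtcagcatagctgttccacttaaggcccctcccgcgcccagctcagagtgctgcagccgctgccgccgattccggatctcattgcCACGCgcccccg
The second PDK1 window holds 2 stretches of the core, 17 and 8 bases before the start, and the closest centre is 11 bp from the replicate 2 summit. The LDHA window holds 4 such stretches and no peak, so in these windows the core was found with and without a peak.

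None of the HIF subunit genes was called in both libraries. HIF1A, the alpha subunit found in most cells, had 2 peaks in replicate 3 alone, 103 bp and 384 bp past its first start, with folds of 3.70 and 3.37. Their summits lay 207 bp past and 74 bp upstream of the start of the noncoding gene HIF1A-AS1, so the second was nearer to that start. EPAS1, which encodes HIF-2 alpha, had a peak in replicate 2 alone, 344 bp upstream, with fold 3.14 and a −log10 q of 1.97. ARNT had one in replicate 2 alone, with the summit on its start (0 bp), fold 3.74 and −log10 q 2.93. The highest −log10 q among these 4 peaks was 4.01, at HIF1A, and the nearest summit of the other library was 97992 bp from ARNT, 312812 bp from EPAS1 and 972005 bp from HIF1A.

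Of the genes that lower HIF in oxygen, EGLN1, EGLN2 and VHL had shared peaks, HIF1AN had a peak in replicate 3, and EGLN3 had none, with its nearest summits at 763683 bp and 109265 bp. EGLN2, a prolyl hydroxylase known as PHD1, had fold 5.74 in replicate 2 (chr19:40799100-40799549, −log10 q 9.18) and 4.22 in replicate 3 (chr19:40799107-40799440, −log10 q 5.51), with summits 20 bp apart. EGLN1, the main oxygen sensor PHD2, had fold 4.51 (chr1:231422121-231422324, −log10 q 7.36) and 4.34 (chr1:231421738-231422464, −log10 q 6.58), with summits 59 bp and 388 bp past its start. For both genes the shared peak had a −log10 q of at least 5 in each library. EGLN1 had 2 further peaks in replicate 2 (fold 2.73 and 3.27), and EGLN2 had 2 further peaks in replicate 3 (fold 3.13 and 4.38). At VHL, the ubiquitin ligase subunit that recognises hydroxylated HIF, fold was 3.56 (chr3:10141890-10142140, −log10 q 4.45) and 3.59 (chr3:10141694-10142259, −log10 q 5.57), with summits 168 bp and 218 bp inside the gene from its end of lower coordinate. HIF1AN, which blocks the coactivator contact of HIF, had a peak 2256 bp beyond the gene, with fold 2.63 and a −log10 q of 1.32 that is close to the lowest listed.

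The starts of EGLN1 and EGLN2 are shown because their folds were the highest in both libraries among the genes of HIF turnover. The windows are chr1:231422238-231422537 on the minus strand for EGLN1, and chr19:40798941-40799240 and chr19:40799272-40799571 on the plus strand for EGLN2. Each was touched by a peak of both libraries, and capitals mark the hypoxia cores.
EGLN1: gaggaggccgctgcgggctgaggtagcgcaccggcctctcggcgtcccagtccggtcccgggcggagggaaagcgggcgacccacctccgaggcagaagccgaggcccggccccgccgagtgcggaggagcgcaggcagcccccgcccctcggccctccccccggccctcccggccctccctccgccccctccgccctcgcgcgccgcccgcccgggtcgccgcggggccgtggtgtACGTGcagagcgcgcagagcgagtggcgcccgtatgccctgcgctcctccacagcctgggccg
EGLN2 first start: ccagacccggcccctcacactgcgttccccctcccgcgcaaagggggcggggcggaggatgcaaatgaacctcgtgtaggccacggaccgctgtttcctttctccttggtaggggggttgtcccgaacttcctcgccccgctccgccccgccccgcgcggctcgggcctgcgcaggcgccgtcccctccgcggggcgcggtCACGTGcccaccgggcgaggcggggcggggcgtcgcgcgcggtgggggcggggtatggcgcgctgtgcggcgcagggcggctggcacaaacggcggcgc
EGLN2 second start: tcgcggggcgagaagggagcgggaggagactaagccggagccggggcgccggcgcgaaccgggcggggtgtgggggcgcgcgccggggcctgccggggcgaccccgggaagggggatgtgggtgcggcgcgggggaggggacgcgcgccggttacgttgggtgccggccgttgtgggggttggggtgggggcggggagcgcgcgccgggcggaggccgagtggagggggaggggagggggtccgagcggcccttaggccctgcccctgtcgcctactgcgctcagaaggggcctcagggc
EGLN1 has a core 13 bases before its start, the first EGLN2 window has the palindrome CACGTG 49 bases before its start, and the second has none. Their GC contents are 80.0%, 76.3% and 79.3%.

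Among hypoxia targets, BNIP3 and NDRG1 had shared peaks. BNIP3 encodes a receptor for the autophagy of mitochondria. Its fold was 6.07 in replicate 3 (chr10:131981720-131982285, −log10 q 8.81), the highest of any member peak in that library and higher than 99.1% of its peaks. In replicate 2 a pair of peaks overlapped it, with folds of 3.28 (chr10:131981663-131981804, −log10 q 2.41) and 3.97 (chr10:131982090-131982469, −log10 q 3.03) by 85 bp and 196 bp. A further replicate 3 peak, with fold 4.81, lay 653 bp upstream of the start. The fragments at these summits were 22 and 20 in replicate 2 and 28 in replicate 3, with exact 95% Poisson intervals of 13.8 to 33.3, 12.2 to 30.9 and 18.6 to 40.5. The fragments expected from the local background were 5.89 and 4.16 in replicate 2 and 3.65 in replicate 3. Both parts of the fold thus differed in value, but the fragment intervals overlapped, and the difference in fold was not tested. The window at its start (chr10:131981874-131982173, minus strand) is shown for its run of hypoxia cores, in capitals.
BNIP3: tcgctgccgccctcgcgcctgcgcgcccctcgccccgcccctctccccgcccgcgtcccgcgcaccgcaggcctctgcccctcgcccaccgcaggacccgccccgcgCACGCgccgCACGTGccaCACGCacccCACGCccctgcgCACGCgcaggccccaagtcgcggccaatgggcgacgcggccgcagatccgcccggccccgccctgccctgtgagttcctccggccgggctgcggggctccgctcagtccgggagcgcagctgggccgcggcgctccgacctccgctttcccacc
It holds 5 stretches of the core between 143 and 104 bases before the start and 48 CpG dinucleotides, the most of any member window.

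CA9, VEGFA, ADM and ANKRD37 are widely used as reporters of HIF activity. CA9, a carbonic anhydrase, had a peak in replicate 2 alone, 2107 bp past its start, with fold 3.42 and −log10 q 2.86. The nearest replicate 3 summit was 8889 bp outside the gene, the closest beyond the 5 kb window for any member without a call. VEGFA, the angiogenic growth factor, had its nearest summits at 194063 bp and 194094 bp. ADM, which encodes a vasodilating peptide, had its nearest summits at 11264 bp and 11305 bp, and ANKRD37 at 8604399 bp and 4772918 bp.

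NDRG1, a stress-responsive gene induced in hypoxia, had the highest lower fold of the 2 libraries among all members. Its fold was 5.18 in replicate 2 (chr8:133297061-133297517, −log10 q 7.41) and 5.44 in replicate 3 (chr8:133297006-133297569, −log10 q 8.44), higher than 95.3% and 97.0% of peaks. The summits lay 22 bp apart, 61 bp and 83 bp inside the gene from its end of higher coordinate, on 30 fragments in each library over 4.84 and 4.58 expected. BNIP3L, the paralogue of BNIP3, had a peak in replicate 2 alone, with fold 4.27 and −log10 q 3.75, on 21 fragments. SLC2A3, VEGFA, VHL, BNIP3L and NDRG1 were not in the RefSeq promoter table used for the starts.

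Peaks of members gathered at starts of transcription. Over the 32 members in the promoter table, 19 of 24 summits in replicate 2 (79.2%) and 28 of 35 in replicate 3 (80.0%) lay within 1 kb of a start of the gene. Over all protein-coding genes in the table it was 67.2% of 7998 and 66.0% of 10838 assignments of a summit to a gene. A summit near several genes counts there for each of them. Within that distance, 14 member summits of replicate 2 lay past the start and 5 before it (73.7% past it, against 59.7% over all protein-coding genes). In replicate 3 they divided as 15 and 13 (53.6%, against 58.8%), so the members lay on opposite sides of the share of all genes in the 2 libraries. A listed start can lie inside the RefSeq span of its gene, as at GAPDH, GPI and PKM, so a summit before it can be inside the gene. A shared peak with both summits within 1 kb of a start was found at 11 of 32 members (34.4%, exact 95% interval 18.6 to 53.2), against 20.5% of 15812 genes. They were SLC2A1, GPI, PFKL, PFKFB3, ALDOA, TPI1, PKM, PDK1, EGLN1, EGLN2 and BNIP3.

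**Figure D3:**
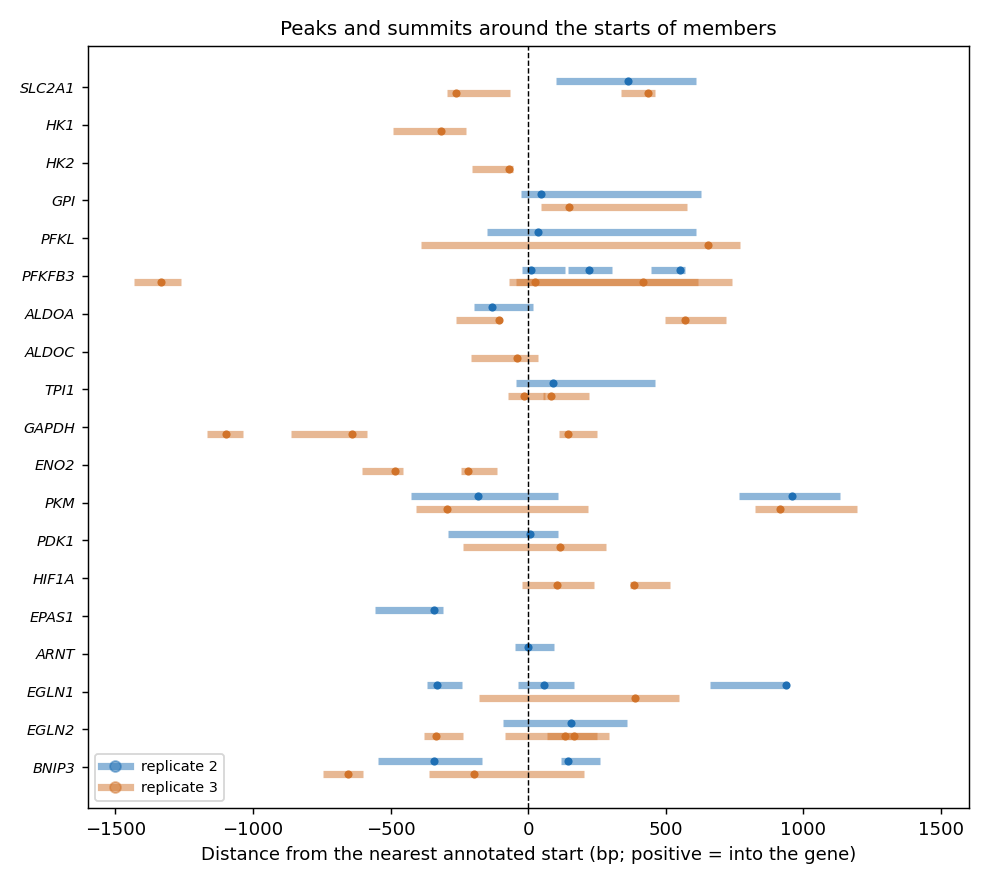
Peaks (bars) and summits (dots) of members within 1500 bp of their nearest annotated start, in bp along the direction of transcription, replicate 2 in blue above and replicate 3 in orange below. Most bars sit across or just past the dashed start line, as at TPI1 with summits at 90 bp and 82 bp; where a gene has several starts, as PFKFB3 has, each peak is drawn against its own nearest one.

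Of the 11 members with several listed starts, 5 were touched by a peak at 1 of them (HK1, HK2, ALDOA, PDK1 and HIF1A), 3 at both of their 2 starts (PFKFB3, TPI1 and EGLN2) and 3 at none (PFKM, PFKP and LDHA). Of the 7 starts of HK1, 1 window was touched by a peak, and it had 37 CpG dinucleotides against 0 to 15 in the others. HIF1A was touched at the start with 31 and not at the one with 3, ALDOA at the one with 35 and not at those with 10 and 6, and PDK1 as above. At HK2 the starts were closer, with 38 at the touched one and 34 at the other. The untouched windows of PFKP held up to 42, and the single untouched window of EPAS1 held 47. Over the 56 windows of members, the median number of CpG dinucleotides was 40 in the 11 touched in both libraries, 31 in the 9 touched in 1 library and 18 in the 36 touched in neither. Over all protein-coding genes these medians were 37, 32 and 15, so the members followed the pattern of all promoters. The part of base composition in the calls was not tested.

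**Figure D4:**
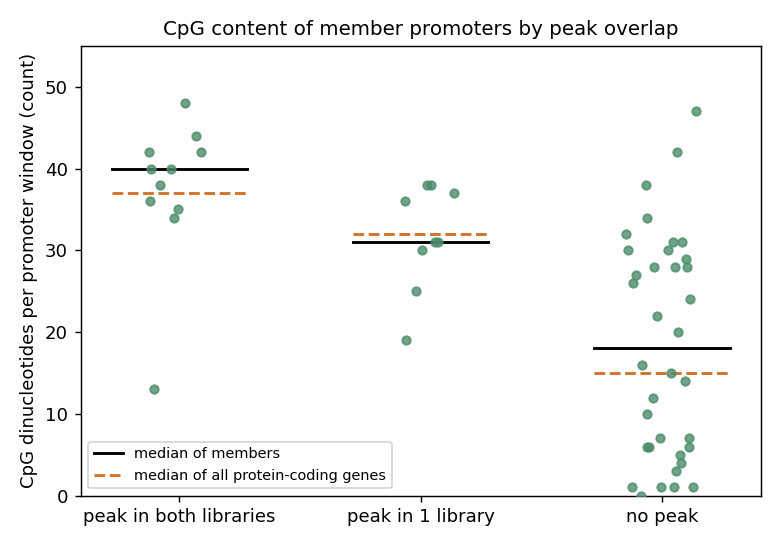
CpG dinucleotides per promoter window of 300 bases (count) for the 56 windows of members, by whether a peak of both libraries, of 1 library or of neither overlaps the window; points are windows, black lines their medians (40, 31 and 18) and dashed orange lines the medians of all protein-coding genes (37, 32 and 15). The lowest point among windows touched in both libraries, with 13, is GPI.

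Motif letters were counted on both strands of the windows as a description. The hypoxia core ACGTG or GCGTG was in 64.3% of the 56 member windows and in 54.7% of all 22132 windows of protein-coding genes. ACGTG by itself was in 39.3% and 23.1%, and it overlaps the E-box CACGTG, found in 16.1% and 8.34%. In the 17 windows of the 11 members with a shared peak at a start, the core was in 82.4%, against 60.5% for all genes with such a peak. Both sets hold every listed window of their genes. The first window of PDK1 and the first and second of ALDOA were touched by no peak. The forkhead core, searched as TGTTTAC or TGTTTAT or TGTTTGC or TGTTTGT, was in 0 of these 17 windows and in 9.64% of the windows of all genes with such a peak. It was in 6 of the 39 other member windows and in 12.5% of all windows. The CHR element TTTGAA or TTCGAA was in 5.88% of the 17 windows and in 9.39% for all genes with such a peak. CCAAT was in 29.4% and 29.5%, and the SP box GGGCGG in 76.5% and 73.3%, so these shares were close to those of all genes called in the same way. These are matches of short letters in windows that only partly cover the peaks, and neither a match nor its absence speaks of binding.

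The 20 overlapping pairs were chosen by being called in both libraries. Their values therefore describe the shared peaks and do not measure how well the libraries agree. A further 10 members were called in 1 library alone, and no share of all genes was counted beside them. The exact 95% Poisson intervals of the fragments overlapped in each pair, and at 18 to 47 fragments a summit these intervals are wide. The replicate 3 peaks of PFKFB3 (second start) and BNIP3 each stand in 2 pairs. Of the 20 pairs, 11 had the higher fold in replicate 3. The log2 ratio of fold, replicate 3 over replicate 2, had a median of 0.02 and an SD of 0.40 over these pairs, against 0.03 and 0.34 over 5662 pairs at all protein-coding genes. It ran from -0.53 at ENO2 to 0.89 at BNIP3. Summits of a pair lay a median of 103.5 bp apart, with 9 of 20 within 100 bp, and the closest were TPI1 at 8 bp and PFKFB3 at 14 bp. Member summits rested on 19 to 40 fragments in replicate 2 and 18 to 47 in replicate 3. Of the member peaks, 5 of 27 in replicate 2 and 14 of 37 in replicate 3 had a −log10 q below 3. Over all peaks of replicate 2, 27.7% had a −log10 q below 2.93 and 29.8% below 3.03. In replicate 3, 28.9% of all peaks were below 2.93 and 38.7% below 3.36. Differences from these shares were not tested.

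**Figure D5:**
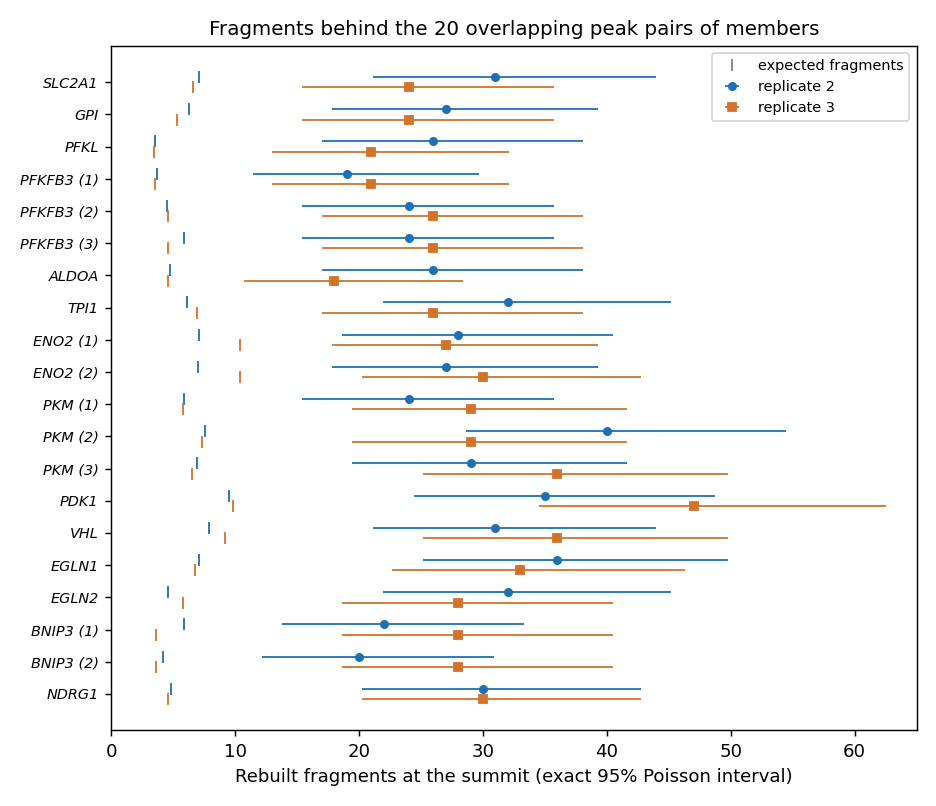
Rebuilt fragments at the summits of the 20 overlapping peak pairs of members, replicate 2 in blue and replicate 3 in orange, with exact 95% Poisson intervals that cover counting error only; ticks mark the fragments expected from the local background, and a gene with several pairs has them numbered. Every pair of intervals overlaps. Every interval lies above its tick, at PDK1 with 35 and 47 fragments over 9.51 and 9.83, which follows from peaks being called for exceeding that background.

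Of 73 further genes of the same pathways, all matched in the annotation, 30 (41.1%) had a peak in replicate 2, against 33.3% of all protein-coding genes. In replicate 3 it was 39 (53.4%), against 41.3%, and 27 (37.0%) had a shared peak, against the 25.5% given above. This list was chosen with earlier results of these data known. By block, shared peaks stood at 10 of 38 genes of glycolysis and its neighbours, 7 of 11 of the HIF pathway and 10 of 24 HIF targets. The same 25.5% of all genes stands beside each block. The blocks are small, and differences between them were not tested. The 6 of highest lower fold were SIAH1, a ubiquitin ligase that acts on the prolyl hydroxylases (4.08 in replicate 2 and 4.68 in replicate 3), BHLHE41, a circadian repressor (4.66 and 4.04), GCKR, the glucokinase regulator (5.38 and 4.02), PGM1, phosphoglucomutase (4.31 and 4.02), PC, pyruvate carboxylase (4.12 and 3.99), and MIF, a cytokine (3.88 and 4.29). The GCKR peak lay 1685 bp and 1884 bp upstream of its start and by the start of FNDC4, and the PC peak lay 62597 bp and 62514 bp past the listed start of PC and by that of RCE1. PC had 8 peaks in replicate 2 and 15 in replicate 3. Its pair rested on 125 and 101 fragments, the most among the shared genes of this list. In the HIF pathway the 7 genes called in both libraries were SIAH1, the coactivator genes EP300 (3.70 and 4.46) and CREBBP (5.17 and 3.51), the ligase subunits CUL2 (3.65 and 4.81), RBX1 (3.55 and 4.54) and ELOB (3.42 and 3.57), and the ARNT paralogue ARNT2 (4.66 and 3.72). The CUL2 peak lay by the start of CREM, 36469 bp and 36424 bp upstream of the listed CUL2 start. Apart from SIAH1 these were named after their values were seen.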

How the data were processed

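The series measured chromatin occupancy by ChIP-seq in 1 input and 2 anti-FOXM1 libraries. The submitters' processing notes name MACS2 2.2.7.1, BWA, CASAVA 1.4 and the GRCh38 build, without role or order. Filters and the control library are not given in the sources used here. The authors deposited 1 peak list per ChIP library, with a fold ratio, −log10 p and −log10 q per peak. The deposited score column was not used, and the deposited summit offset, in bp from the peak's start, gave each summit. No table of counts was used.

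Fragments were rebuilt as the whole count that gives both the deposited fold and the deposited −log10 p under a Poisson background. The fold was taken as the ratio after the same small constant was added to scaled fragments and background. Fragments divided by expected fragments therefore exceed the printed fold. All peaks (100%) were matched within 0.001, and in 500 peaks per library made with known counts 100% were recovered exactly. Expected fragments are the background on the ChIP scale (0.848 and 0.869). Poisson and binomial (Clopper-Pearson) intervals at 95% cover counting error only.

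Genes came from the RefSeq table of GRCh38.p14, and starts, strands and sequences from the RefSeq promoter table, which held 32 of the 37 members. Exons were not used here. Coordinates are 1-based. No groups of samples could be tested, so counts stand beside those of all protein-coding genes. Every member is accounted for; of other pathway genes, the 6 of highest lower fold were to be named. The members and lists were chosen with earlier results of these data known. Alternatives were the window, thresholds on q and fold, the definition of shared, and each library alone. Python 3.11.15, numpy 2.4.6, pandas 2.3.3, SciPy 1.17.1 and matplotlib 3.10.9 were used.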

Additional observations from a re-analysis of the deposited data

How the results depend on the processing

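Members with a shared peak, 14 in the main setting, numbered 4 with −log10 q of at least 5 (PFKL, EGLN1, EGLN2 and NDRG1; 6.36% of all protein-coding genes), 5 with fold of at least 4 (the same and PFKFB3; 8.33%), 8 with summits within 100 bp (15.7%) and 7 with reciprocal overlap of at least 50% (16.9%). With 1 library left out no overlap is asked for, so the count becomes that of the library kept and cannot fall. It was 18 in replicate 2 (33.3% of all genes) and 20 in replicate 3 (41.3%). With −log10 q of at least 5, 9 members had a peak in replicate 2 (12.5% of all genes) and 11 in replicate 3 (16.2%), and with fold of at least 4 it was 10 (15.7%) and 10 (20.9%). A shared peak within 1 kb of a start fell from 11 to 3 members with −log10 q of at least 5 (4.95% of all genes). A peak of 1 library alone, which cannot be rarer than a shared one, was within 1 kb of a start at 13 members in replicate 2 (27.1% of all genes). In replicate 3 it was at 17 (34.35%). The median highest fold within 1 kb of the gene was 4.27 in replicate 2 and 4.34 in replicate 3, and by −log10 q it was 4.08 in replicate 3. Other windows, and the check for a nearer gene, which was added after seeing the data, kept counts within 1.5 times. With the summit inside the gene, 16 members had a peak in replicate 2 (23.7% of all genes) and 15 in replicate 3 (30.1%). A shared peak there was at 12 (16.1%). Within 1 kb of the gene these counts were 17 (30.3%), 19 (38.1%) and 13 (23.1%). A shared peak was within 500 bp of a start at 10 (18.3%) and within 5 kb of one at 11 (22.55%). Exact intervals were computed at the main settings only, so the margins at these windows were not tested. No paired analysis was possible because the design has a single group of ChIP libraries and nothing to pair it with. Summits of 18 to 47 fragments limit the detection of weak peaks.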
